A study of Mus musculus with 5 samples.

Results

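Axon guidance genes encode the cues and receptors by which growing axons, blood vessels and migrating cells find their paths. The genes described here are those whose symbol begins with Sema, Plxn, Slit1 to Slit3, Robo1 to Robo4, Unc5, Ntn, Epha, Ephb, Efna or Efnb. The gene list of the single-nucleus RNA-seq data holds 73 such genes among 32285. Of these, 70 reached 20 or more unique molecular identifiers (UMIs, each standing for 1 captured RNA molecule) in at least 1 of the 2 deposited matrices. In one matrix 65 did and in the other 70 did. Efna3, Epha8 and Ntn5 stayed below, with 5 and 8, 1 and 4, and 2 and 4 UMIs in the 2 matrices, while the members just inside the limit were Plxna4os1 with 24 and 21 UMIs and Plxna4os2 with 0 and 29. The 73 comprised 20 semaphorins, 9 plexins, 3 Slit and 4 Robo genes, 4 netrins, 2 netrin-G genes, 4 Unc5 receptors, 5 ephrin-A and 3 ephrin-B ligands, and 9 EphA and 5 EphB receptors. The symbol rule also took in 3 antisense transcripts of the Plxna4 locus and Unc50 and Unc5cl, which are not netrin receptors.

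Semaphorins signal through plexins, the secreted class 3 semaphorins mostly with a neuropilin as partner. Slit proteins bind Robo receptors, netrins bind Unc5 and Dcc family receptors, and ephrins on one cell bind Eph receptor kinases on its neighbour. Brown adipose tissue is densely supplied with capillaries and sympathetic nerve fibres, and in vessels the pair of ephrin-B2 and EphB4 is known for marking arteries and veins.

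Nuclei came from interscapular brown adipose tissue (iBAT) of male mice on a C57BL/6J background. One matrix held 3-month-old mice of 2 genotypes: control (WT) mice and Ucp1-STX4KO mice (Ucp1-Cre+/- STX4 fl/fl), in which the Ucp1 promoter drives Cre in brown adipocytes. For another experiment the paper gives WT controls as Ucp1-Cre+/- or STX4 fl/fl mice. Which of these gave the WT nuclei was not given in the sources used here. The other matrix held C57BL/6J mice of 2, 12 and 24 months. The libraries of a matrix can be told apart only by the suffix of their barcodes, and nothing ties a suffix to a genotype or an age, so the 2 libraries of the genotype matrix and the 3 of the age matrix are called by number and no comparison of genotype or age was made. Each label covers 1 sample, which mice went into which library was not given in the sources used here, and no test across samples was possible. The intervals given are exact 95% intervals for counting error only.

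Depth and make-up differed between libraries. The genotype matrix held 11201 and 9106 barcodes with 76195924 and 39857819 UMIs. The age matrix held 10000 barcodes in each of 3 libraries, with 14486189, 19278264 and 20891602 UMIs. Library 1 of the age matrix stood apart, because 2158 of its barcodes had too few UMIs or genes to be kept. Nuclei were put into types by fixed marker genes. The labels name brown adipocytes, and in the genotype matrix 10003 and 3323 nuclei passed the adipocyte gate alone. In the age matrix 631, 585 and 299 did, against 2360, 5489 and 7679 endothelial nuclei, so most of the gated nuclei there were not adipocytes by their markers. Mural nuclei (pericytes or smooth muscle) numbered 181 and 320 in the genotype matrix and 2050, 534 and 729 in the age matrix. Stromal nuclei (fibroblasts or progenitors) numbered 309 and 348, and 166, 145 and 270. Macrophage nuclei (74 and 582), T lymphocyte nuclei (132 in library 2) and skeletal muscle nuclei (327 in library 2) were numerous enough for the calls (50 or more in a library) only in the genotype matrix, and Schwann nuclei (652 and 56 in libraries 1 and 2) only in the age matrix. Between 23 and 45 barcode sequences were shared by any 2 libraries. Stx4a, the gene targeted in the knockout, was at 59.98 CPM (58.2 to 61.8) in adipocyte nuclei of library 1 and 49.9 CPM (47.1 to 52.9) in library 2 of the genotype matrix. CPM are counts per 1000000 UMIs, with the interval in brackets. Neither library lacked it, no genotype was assigned from these values, and whether the counted 3′ end lies outside the floxed part was not given in the sources used here.

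Levels below are CPM, summed over the nuclei of a type in a library. A gene was called raised in a type where its CPM was at least 3 times the mean CPM of the other types in every library with 50 or more nuclei of that type, with 20 or more UMIs there. In the genotype matrix 37 of 65 guidance genes were raised in at least 1 type, against 22.8% of all genes tested. The age matrix had 37 of 70, against 17.2% of all genes. Together these were 49 genes. Endothelial nuclei held the most of them, with 16 of 65 in the genotype matrix (all genes 2.42%) and 15 of 70 in the age matrix (all genes 3.89%). The 15 included Robo3, Plxna4os2 and Plxna4os3, with 56 of 69, 26 of 29 and 122 of 140 UMIs in endothelial nuclei. They reached the limit of 20 UMIs mainly through that type. Plxna4os2 and Plxna4os3 are antisense transcripts. Schwann nuclei followed with 11 of 70 (all genes 3.17%), or 3 without library 1 of the age matrix, and stromal nuclei with 7 of 65 (3.08%) and 5 of 70 (2.32%). Mural nuclei had 5 of 65 (2.26%) and 3 of 70 (3.11%). Macrophage nuclei had 3 of 65 (3.97%), as did T lymphocyte nuclei (2.25%) and skeletal muscle nuclei (4.50%). The T lymphocyte calls included Unc5cl, which is not a netrin receptor. In adipocyte nuclei 1 of 65 was raised in the genotype matrix (all genes 4.77%) and 3 of 70 in the age matrix (all genes 4.69%), not above the share of all genes. The 1 adipocyte call of the genotype matrix became 2 without its library 1 and 3 without its library 2.

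**Figure D1:**
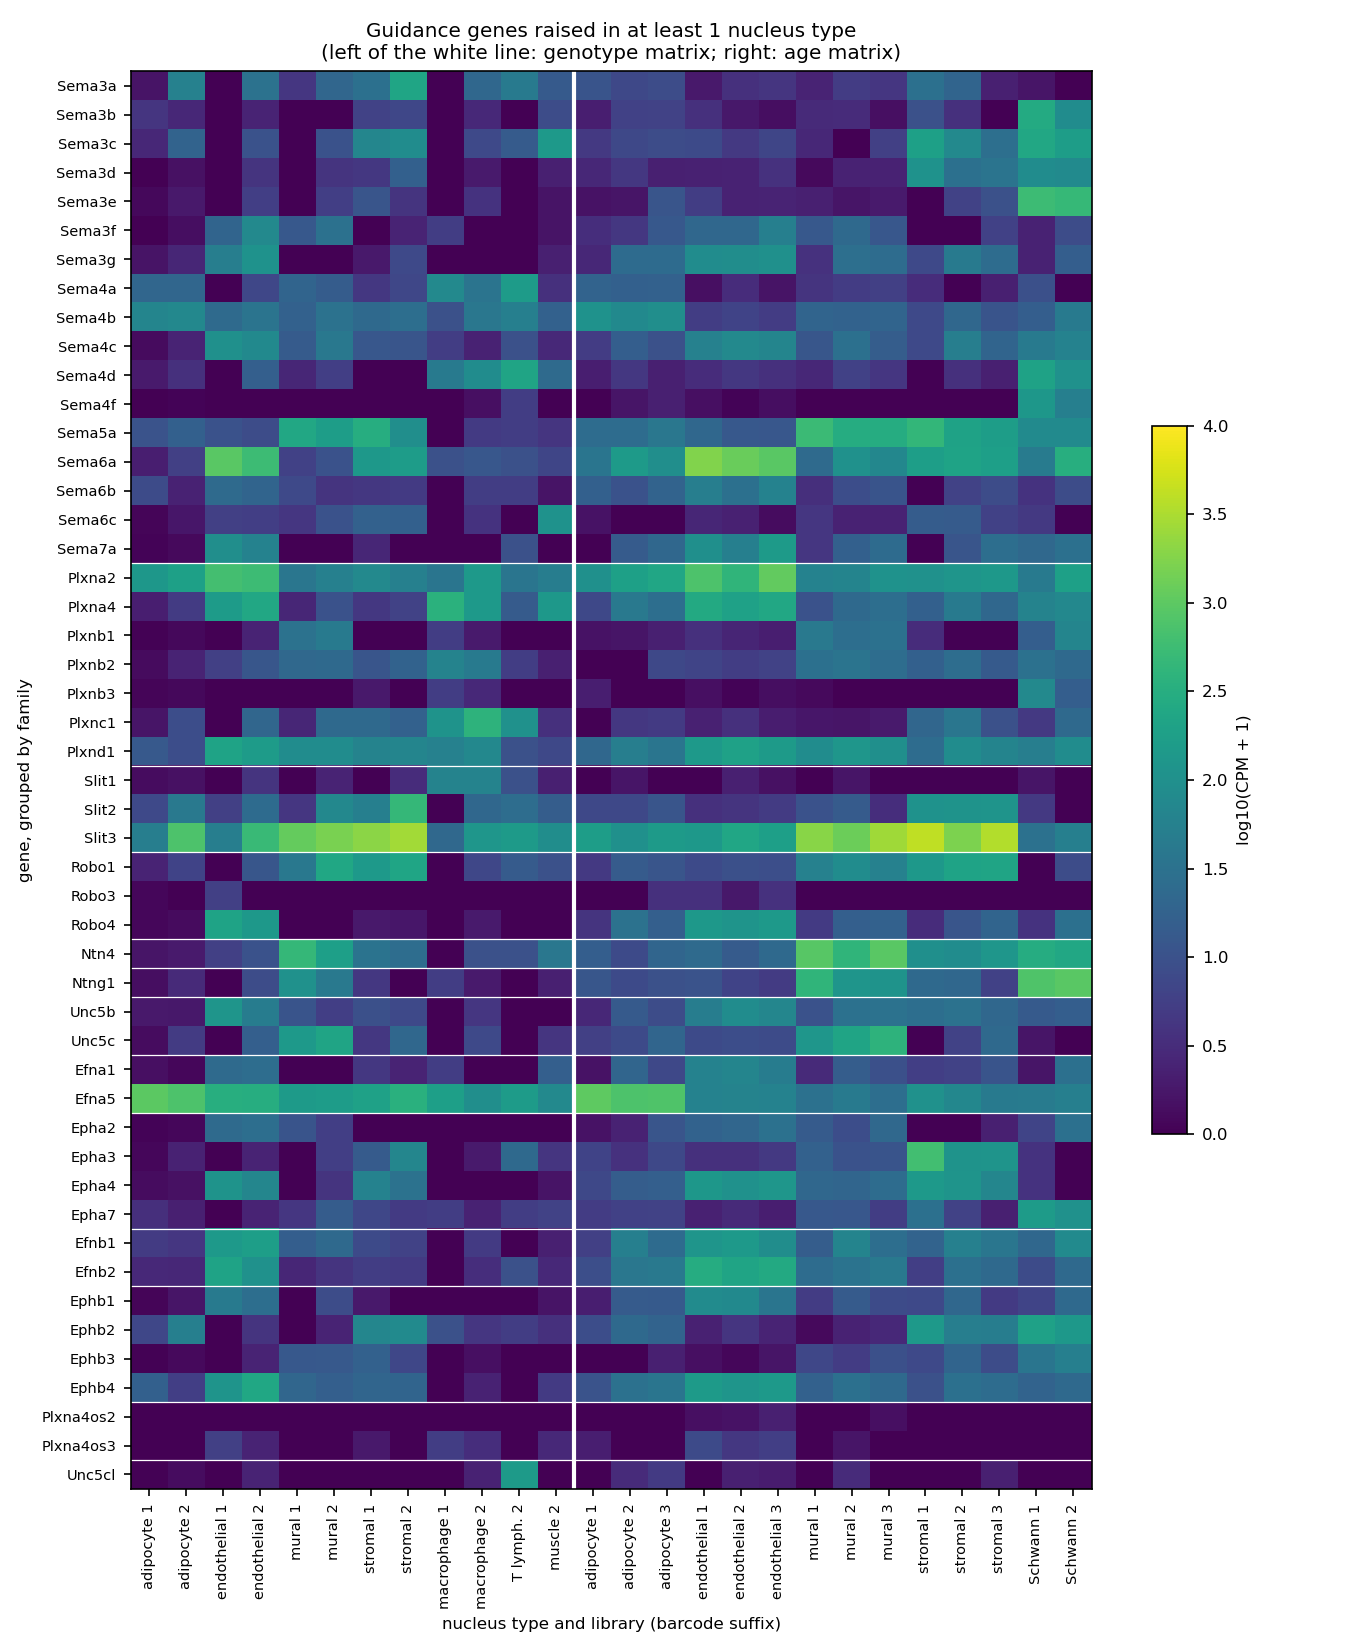
Level of the 49 guidance genes raised in at least 1 nucleus type, as log10(CPM + 1), by gene (rows, grouped by family) and by nucleus type and library (columns; left of the white line the genotype matrix, right of it the age matrix). Endothelial columns of both matrices are bright for Sema6a and Plxna2, mural and stromal columns for Slit3, adipocyte columns for Efna5, and the 2 Schwann columns for Sema3e and Ntng1.

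**Figure D2:**
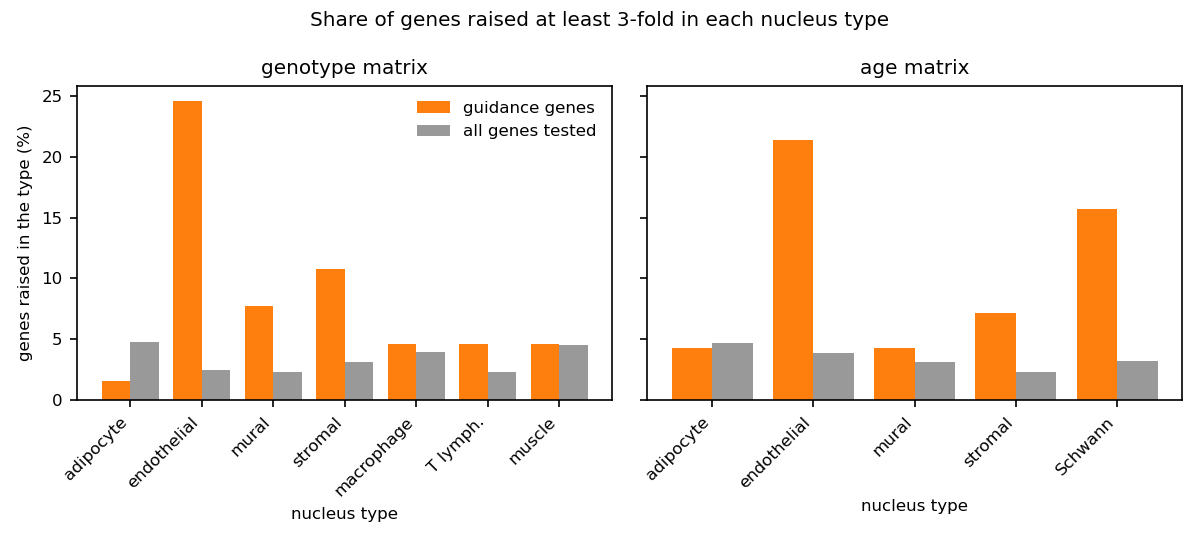
Percent of genes raised in each nucleus type, for guidance genes (orange; 65 in the genotype matrix, 70 in the age matrix) and for all genes tested (grey). The orange bars exceed the grey ones most in endothelial nuclei of both matrices and in Schwann nuclei of the age matrix.

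Adipocyte, endothelial, mural and stromal nuclei were present in all 5 libraries. The type with the highest CPM among these 4 was the same in all 5 libraries for 32 of 65 members, against 28.0% of all genes tested. It was endothelial for 16 of them (24.6% of the 65, against 7.14% of all genes), stromal for 8 (12.3% against 5.85%), mural for 5 (7.69% against 4.42%) and adipocyte for 3 (4.62% against 10.6%). Raised in endothelial nuclei of both matrices were 10 members (all genes 1.54%), namely the ligands Sema3g, Sema6a, Sema7a, Efna1 and Efnb2 and the receptors Plxna2, Robo4, Unc5b, Ephb1 and Ephb4. Of these, Efna1 was also called in skeletal muscle nuclei of the genotype matrix. It rests there on 22 endothelial and 24 muscle UMIs, at 25.1 and 15.3 CPM, a ratio of endothelial to muscle nuclei of 1.64 (95% interval 0.878 to 3.06) that includes no difference. The endothelial value is of both libraries and the muscle value of library 2 alone. In stromal nuclei 4 were raised in both (1.70%), the ligands Slit2 and Slit3 and the receptors Robo1 and Epha3. In mural nuclei 3 were (1.56%), Ntn4, Sema5a and Unc5c. In adipocyte nuclei 1 was (1.56%), Efna5.

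The promoters of 2 endothelial members are shown to give their sequence context, because vascular genes are often bound by ETS factors, whose sites contain GGAA. The letters CAGGAA, or TTCCTG on the other strand, were sought in the 250 bases before each RefSeq start (GRCm38.p6), and matches are in capitals. The Sema7a sequence is chr9:57939862-57940111, plus strand, with the match beginning 145 bases before the start. The Efna1 sequence is chr3:89281143-89281201, minus strand, its match beginning 234 bases before the start, and is limited to the 59 bases outside the GENCODE gene.
Sema7a: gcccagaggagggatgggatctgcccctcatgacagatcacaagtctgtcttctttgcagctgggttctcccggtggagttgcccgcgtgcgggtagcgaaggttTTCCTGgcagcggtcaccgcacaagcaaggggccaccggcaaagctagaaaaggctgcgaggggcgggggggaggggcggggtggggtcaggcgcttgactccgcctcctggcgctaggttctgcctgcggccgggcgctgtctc
Efna1: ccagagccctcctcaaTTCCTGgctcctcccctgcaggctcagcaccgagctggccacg
Of the 10 endothelial members 9 had an entry, with 10 promoters, and 3 of these (Efna1, Robo4 and Sema7a) held the letters. Of all 32851 promoters listed, 25.7% did, so the share among endothelial members was close to that of all promoters. A match describes these letters and is not a binding site.

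Among the endothelial ligands, Sema6a, a membrane-bound semaphorin, was at 951 and 550.2 CPM in endothelial nuclei of the genotype matrix and 1727, 1229 and 947 in the age matrix. Stromal nuclei, next in order, had 133 and 159.9 CPM in the genotype matrix and 176, 208 and 179 CPM in the age matrix. No endothelial value overlapped a stromal one in any library. Summed over libraries, endothelial nuclei exceeded stromal nuclei 4.4-fold (95% interval 3.85 to 5.03) in the genotype matrix and 6.04-fold (95% interval 5.4 to 6.79) in the age matrix.

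Efnb2, the transmembrane ephrin-B2 ligand of arterial endothelium, was at 209.8 and 104 CPM in endothelial nuclei of the genotype matrix and 299.7, 217 and 266 in the age matrix. Mural nuclei had 1.65 and 3.02 CPM in the genotype matrix and 24.9, 32.2 and 39.9 CPM in the age matrix. In the same endothelial nuclei its receptor Ephb4, known from veins, was at 117 and 240.3 CPM in the genotype matrix and 149.9, 122 and 142 CPM in the age matrix. Mural nuclei had Ephb4 at 19.8 and 15.1 CPM in the genotype matrix and 16.7, 29.4 and 22.3 CPM in the age matrix. Summed over libraries, the next type for Ephb4 was stromal in the genotype matrix (18.9 CPM) and adipocyte in the age matrix (21.9 CPM). Ligand and receptor were thus highest in one gated class in all 5 libraries. The gate does not separate arterial from venous endothelium.

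Sema7a, a semaphorin held on the membrane by a lipid anchor, was at 93.2 and 57.4 CPM in endothelial nuclei of the genotype matrix and 97.7, 52.3 and 149 in the age matrix. Sema3g, a secreted semaphorin, was in endothelial nuclei at 51.3 and 109 CPM in the genotype matrix and 87.3, 91.3 and 99.2 CPM in the age matrix. In mural nuclei of the genotype matrix both were at 0 of the UMIs, where a count of 3 would be 4.95 and 4.54 CPM in libraries 1 and 2. In mural nuclei of the age matrix Sema7a was at 3.24, 16.1 and 23.7 CPM. Sema3g in the age matrix had stromal nuclei as its next type, at 6.69, 41.7 and 24.7 CPM, and endothelial nuclei exceeded these 4.01-fold (95% interval 2.92 to 5.65) over the 3 libraries.

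Robo4, the Robo receptor known from endothelium, lies on chromosome 9 from 37401897 to 37415115 (GRCm38, plus strand). It was at 209.8 and 136 CPM in endothelial nuclei of the genotype matrix and 136, 115 and 138 CPM in the age matrix. Adipocyte nuclei had 0.155 and 0.309 CPM in the genotype matrix. In the age matrix they had 2.95, 31.2 and 15.2 CPM, and Schwann nuclei 2.83 and 29.4 CPM. Both sets stayed below every endothelial value, but by less in libraries 2 and 3 of the age matrix. The 8 endothelial markers moved with this, at 184, 1072 and 1324 CPM in adipocyte nuclei of the age matrix against 10.02 and 20.1 in the genotype matrix, and in endothelial nuclei at 11817, 7905 and 11456 CPM and 8948 and 7107 CPM, respectively. Their part in the low levels of endothelial genes in other nuclei was not tested.

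Plxna2, a plexin that binds class 6 semaphorins, was at 648 and 558 CPM in endothelial nuclei of the genotype matrix and 773, 418 and 1105 CPM in the age matrix. Adipocyte nuclei were next, at 130 and 185 CPM in the genotype matrix and 101, 186 and 230.1 CPM in the age matrix. Unc5b, a netrin receptor of vessels, was in endothelial nuclei at 121 and 46.9 CPM in the genotype matrix and 47.8, 86.5 and 67.01 CPM in the age matrix. Mural nuclei had Unc5b at 9.91 and 4.54 CPM in the genotype matrix and 9.21, 30.1 and 31.3 CPM in the age matrix. Every endothelial value was above the mural value of its own library. Summed over libraries, stromal nuclei were next for Unc5b, at 7.63 CPM in the genotype matrix and 24.97 CPM in the age matrix. Endothelial nuclei exceeded these 8.53-fold (95% interval 4.997 to 15.2) and 2.92-fold (95% interval 2.14 to 4.08). Plxna4 was raised in endothelial nuclei of the age matrix. In library 1 of the genotype matrix it was higher in macrophage nuclei, at 358 and 144 CPM over the 2 libraries against 154 and 249 in endothelial nuclei. Plxna4os3, an antisense transcript of the same locus, had the highest fold of the endothelial members of the age matrix, at 6.95, 3.46 and 4.61 CPM. Endothelial nuclei held 122 of its 140 UMIs there, so it reached the limit of 20 UMIs mainly through them. In at least 1 library the other types held none. Whether counting used strand was not stated in the sources used here.

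**Figure D3:**
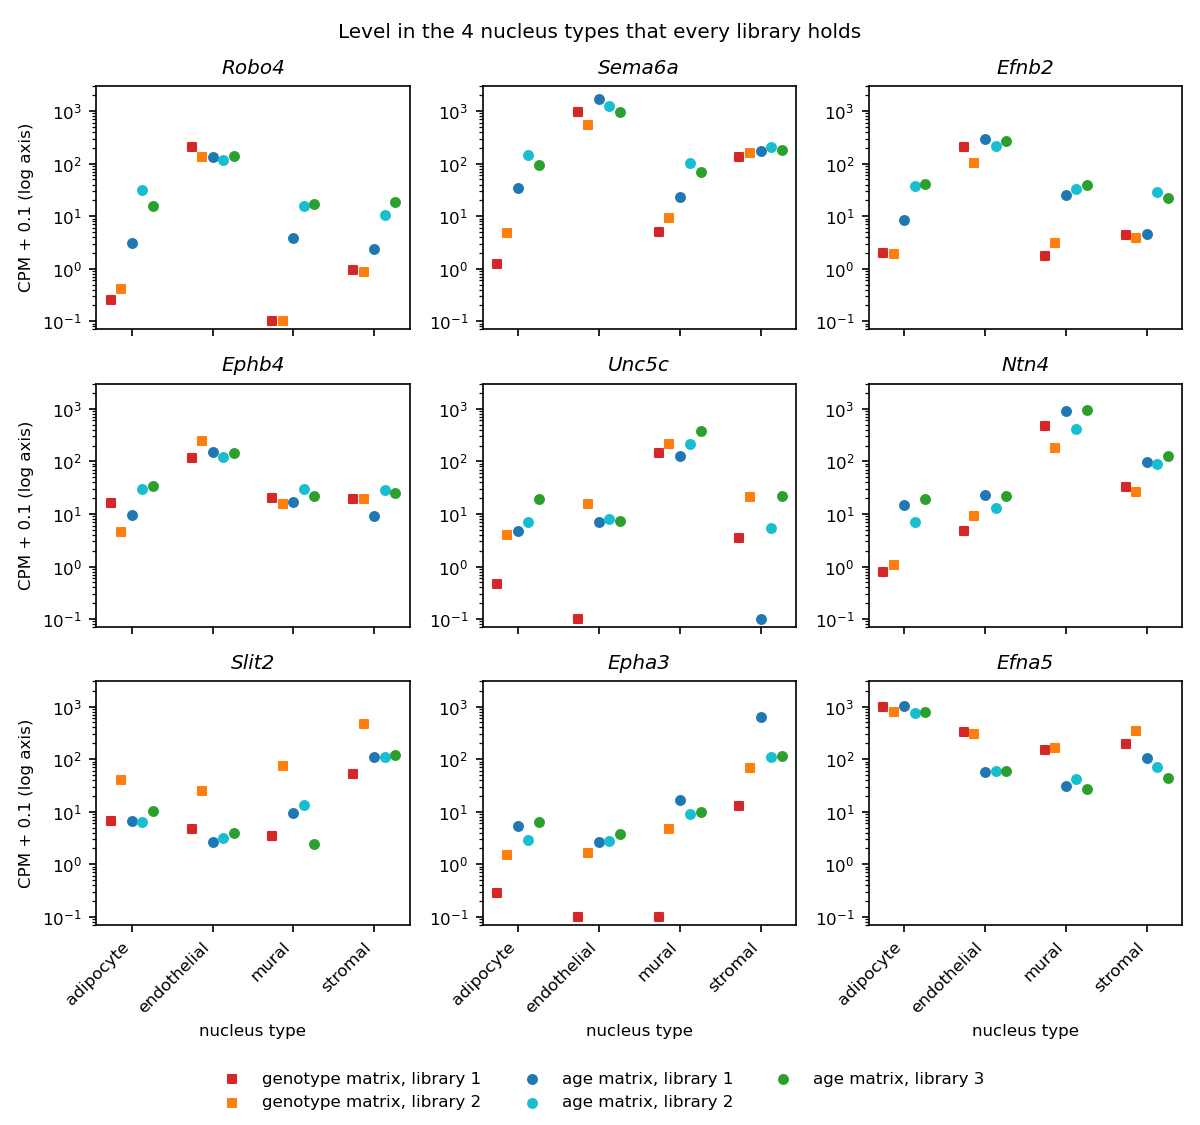
Level of 9 guidance genes (CPM + 0.1, log axis) in the 4 nucleus types that every library holds, with squares for the 2 libraries of the genotype matrix and circles for the 3 of the age matrix. Robo4, Sema6a, Efnb2 and Ephb4 are highest in endothelial nuclei, Unc5c and Ntn4 in mural nuclei, Slit2 and Epha3 in stromal nuclei and Efna5 in adipocyte nuclei, each in all 5 libraries.

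Unc5c and Ntn4 were raised in mural nuclei of both matrices, but were not among the listed pairs of ligand and receptor. Unc5c, a netrin receptor that mediates repulsion of axons, was at 145 and 215 CPM in mural nuclei of the genotype matrix and 124, 219 and 381 in the age matrix. Stromal nuclei, next in order, had 3.46 and 21.02 CPM in the genotype matrix and 0, 5.21 and 22.2 CPM in the age matrix. The mural level exceeded the stromal one 14.1-fold (95% interval 9.73 to 21.1) in the genotype matrix and 17.6-fold (95% interval 11.3 to 28.8) in the age matrix. Ntn4, a netrin that binds laminin in basement membranes, was in mural nuclei at 466 and 177 CPM in the genotype matrix and 899, 414 and 932 CPM in the age matrix. In Schwann nuclei of the age matrix Ntn4 was at 296 and 250.1 CPM, above stromal nuclei with 98.1, 88.6 and 126. Sema5a, a semaphorin with thrombospondin repeats, was called in mural nuclei but was shared with stromal nuclei, at 253 and 169 CPM in mural and 305 and 93.8 CPM in stromal nuclei of the genotype matrix. In the age matrix it was at 524, 296 and 298 in mural and 444, 203 and 169 in stromal nuclei. Ntng1, a membrane-anchored netrin-G, was at 104 and 40.8 CPM in mural nuclei of the genotype matrix. Its log2 ratio to the mean of the other types was 5.32 by the marker gates but 0.02 by graph clusters, where Schwann nuclei formed a further type, so it did not set mural nuclei apart there. The 44 Schwann nuclei of the genotype matrix, too few for the call, had 535.8 CPM of Ntng1.

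Stromal nuclei had 2 Slit ligands together with their receptor Robo1. Slit3 was at 2039 and 2821 CPM in stromal nuclei of the genotype matrix and 4098, 1653 and 3481 in the age matrix. Mural nuclei had 1141 and 1551 CPM in the genotype matrix and 1952, 1269 and 2688 CPM in the age matrix, so that in each library stromal nuclei were above mural nuclei, by 1.81-fold (95% interval 1.72 to 1.91) and 1.59-fold (95% interval 1.54 to 1.64) over all. In stromal nuclei Slit2 was at 52.7 and 457 CPM in the genotype matrix and 109, 112 and 117 CPM in the age matrix. The 2 libraries of the genotype matrix lay further apart for Slit2 than the 3 of the age matrix. Robo1 in stromal nuclei was at 138 and 227 CPM in the genotype matrix and 136, 206 and 212 CPM in the age matrix. In mural nuclei it was at 39.6 and 243 CPM in the genotype matrix and 56.3, 86.9 and 55.6 CPM in the age matrix, and in library 2 of the genotype matrix mural nuclei were the higher.

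Epha3, a receptor of ephrin-A ligands, was at 12.96 and 67.6 CPM in stromal nuclei of the genotype matrix and 622, 112 and 116 in the age matrix. Its next type in the age matrix was mural, at 16.7, 9.11 and 9.97 CPM, a difference of 18.9-fold (95% interval 15.2 to 23.8). In the genotype matrix the next type was T lymphocyte nuclei, on 5 UMIs, and the ratio was 1.92-fold (95% interval 0.798 to 6.04), which includes no difference. Sema3a, a secreted semaphorin that repels axons, was raised by this rule in stromal nuclei of the genotype matrix alone. It was at 28.5 and 219.9 CPM in the genotype matrix and 28.97, 18.2 and 1.24 CPM in the age matrix. Ephb2, an ephrin-B receptor, was raised there too and, in the age matrix, in Schwann nuclei. Its stromal level was 66.5 and 81.8 CPM in the genotype matrix and 147, 49.5 and 48.2 CPM in the age matrix. By graph clusters its log2 ratio in stromal nuclei of the genotype matrix to the mean of the other types was 0.65, against 3.85 by the gates, and the 44 Schwann nuclei had 232.5 CPM. The difference between the matrices was not tested.

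Efna5, which encodes the ligand ephrin-A5, was the member raised in adipocyte nuclei of both matrices, at 994 and 776 CPM in the genotype matrix and 1013, 754 and 792 in the age matrix. Every other type in every library was lower. The call in the genotype matrix was lost by graph clusters, with at most 2000 UMIs per nucleus and with a fold of 5, and the log2 ratio to the mean of the other types, 2.39, was 1.76 in the first of these settings and 1.43 in the second. Endothelial nuclei had 326 and 307 CPM in the genotype matrix and 57.8, 60.3 and 58.4 CPM in the age matrix. The ratio of adipocyte nuclei to the next type was 3.02-fold (95% interval 2.68 to 3.41) in the genotype matrix and 13.2-fold (95% interval 10.9 to 16.1) in the age matrix. The 8 adipocyte markers were also higher in non-adipocyte nuclei of the genotype matrix, at 2052 and 2400 CPM in its endothelial nuclei against 392, 773 and 509.6 in those of the age matrix. In adipocyte nuclei they were at 6831 and 9716 CPM in the genotype matrix and 6855, 6810 and 6377 CPM in the age matrix, with Acaca the most abundant. The part of adipocyte RNA in the Efna5 level of other nuclei was not tested. Sema4a and Sema4b, transmembrane semaphorins, were raised in adipocyte nuclei of the age matrix, at 17.7, 15.9 and 16.5 CPM for Sema4a and 107, 77.7 and 94.1 CPM for Sema4b. In the genotype matrix Sema4a was higher in T lymphocyte nuclei, at 158 CPM against 19.99 and 19.8 in adipocyte nuclei. The 91 macrophage nuclei of the age matrix, too few for the call, had 73.29 CPM of Sema4a (interval 37.9 to 128), above its adipocyte nuclei.

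Schwann nuclei, from the glia of peripheral nerve, had 11 raised members, of which 6 were semaphorins of class 3 or class 4 (Sema3b, Sema3c, Sema3d, Sema3e, Sema4d and Sema4f). Without library 1, which left the 56 Schwann nuclei of library 2, 3 members were called. Sema3e, the ligand of Plxnd1, was at 542 and 471 CPM in libraries 1 and 2 of the age matrix, and no other type with 50 or more nuclei exceeded 10.2 CPM in any library of that matrix. The 42 Schwann nuclei of library 3, which the call did not use, had 1019 CPM. Sema4f was at 130.1, 51.5 and 141 CPM in Schwann nuclei of the 3 libraries, Sema3b at 276, 88.3 and 116 CPM and Sema4d at 204, 103 and 216 CPM. The receptor Plxnb3 was at 75.7, 14.7 and 33.1 CPM, on 107, 2 and 4 UMIs, so its level in libraries 2 and 3 is loosely set. Ntng1 was at 789.8, 949 and 448 CPM and Epha7, an ephrin-A receptor, at 158, 103 and 116 CPM. Of these 7 members, each was above its adipocyte, endothelial, mural and stromal level in all 3 libraries.

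Among blood cell and muscle nuclei of the genotype matrix, Plxnc1, the plexin that binds Sema7a, was at 113 and 381 CPM in macrophage nuclei. T lymphocyte nuclei of library 2 had 105 CPM, and macrophage nuclei of both libraries together exceeded them 3.37-fold (95% interval 2.25 to 5.28). Slit1 was at 61.1 and 60.6 CPM in macrophage nuclei and at most 8.78 CPM in any other type. Plxnb2, a receptor of class 4 semaphorins, was at 61.1 and 41.7 CPM in macrophage and 21.5 and 22.7 CPM in mural nuclei. With at most 2000 UMIs per nucleus its log2 ratio to the mean of the other types fell below a 3-fold difference, at 0.85. Sema4d, a semaphorin of lymphocytes, was at 215 CPM in T lymphocyte nuclei and 43.6 and 88.5 CPM in macrophage nuclei. Skeletal muscle nuclei had 107 CPM of Sema6c and 143 CPM of Sema3c. T lymphocyte and muscle values come from library 2 alone.

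To pair ligands with receptor types, 48 known pairs were listed, and each gene was assigned the type with its highest summed CPM. In the genotype matrix 34 pairs could be counted, 23 with ligand and receptor highest in different types and 11 in the same type. For the age matrix 40 could be counted, 27 in different types and 13 in the same. Highest types were assigned also where the ratio to the next type included no difference. In the age matrix Plxnb2 was highest in Schwann nuclei by 1.001-fold (95% interval 0.709 to 1.385) over mural nuclei. Ntn1 was highest there in stromal nuclei by 1.03-fold (95% interval 0.858 to 1.23) over Schwann nuclei. Taken singly, ligands and receptors of the counted pairs were most often highest in endothelial nuclei, in both matrices. The number of pairs expected from this, in each combination or in different types, was not computed. The most frequent combination was endothelial with endothelial, for 8 pairs in the genotype matrix and 10 in the age matrix. Sema6a with Plxna2, Efnb2 with Ephb4, Efnb2 with Ephb1 and Efnb1 with Ephb1 were of this kind, with both genes highest in endothelial nuclei of all 5 libraries. Slit2 and Slit3 were paired with Robo1 within stromal nuclei in both matrices. For 19 pairs of the genotype matrix and 12 of the age matrix both highest types were the same in every library, and 12 and 4 of these joined different types.

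In 2 pairs ligand and receptor had different highest types in both matrices, the same in every library within a matrix. One was Efna5, highest in adipocyte nuclei, with Epha3, highest in stromal nuclei. The other was Sema7a, highest in endothelial nuclei, with Plxnc1, whose highest type differed between the matrices. It was macrophage in the genotype matrix and stromal in the age matrix, where macrophage nuclei were too few for the call. Plxnc1 was at 18.27 CPM in stromal nuclei of the age matrix, on 30 UMIs, against 103.8 CPM in its 91 macrophage nuclei. Ntn1, a secreted netrin, was highest in stromal nuclei of the genotype matrix at 52.7 and 54.05 CPM, with the receptors Unc5b highest in endothelial and Unc5c in mural nuclei. Summed over libraries, endothelial nuclei were next for Ntn1 at 41.1 CPM, a ratio of 1.3 (95% interval 0.894 to 1.935) that includes no difference. Ntn1 in the age matrix was at 158, 117 and 172 CPM in stromal and 159 and 66.2 CPM in Schwann nuclei. Sema3e of Schwann nuclei faced Plxnd1, at 141, 195 and 149.7 CPM in endothelial and 85.9, 125 and 98.8 CPM in mural nuclei. Slit1 with Robo1 or Robo2 in the age matrix rests on Slit1 levels of at most 1.22 CPM. A pair of highest types does not show that the proteins meet.

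**Figure D4:**
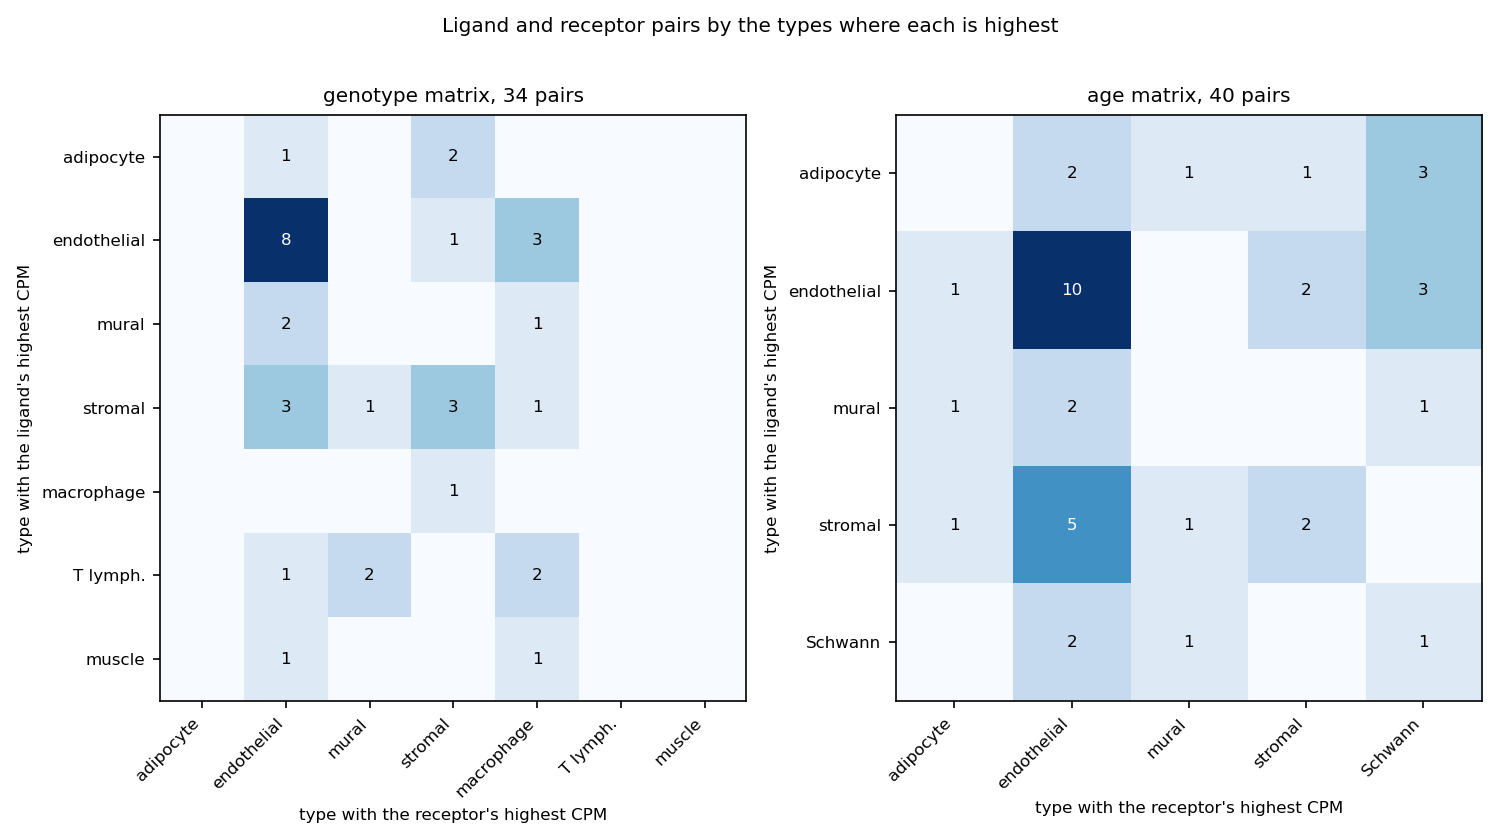
Number of ligand and receptor pairs by the nucleus type in which the ligand (rows) and the receptor (columns) had their highest CPM, for 34 pairs of the genotype matrix (left) and 40 of the age matrix (right). The darkest cell in both is endothelial with endothelial, with 8 and 10 pairs.

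The other pathway genes were described by 2 lists. Of 22 co-receptors and other ligands, 19 reached 20 UMIs in the genotype matrix and 22 in the age matrix. In Schwann nuclei 5 were raised (L1cam, Chl1, Gpc1, Flrt1 and Flrt3), where 3.17% of all genes were, and in muscle nuclei 3 (Neo1, Gpc1 and Flrt1), where 4.50% were. Flrt1 was at 19.8 CPM in muscle nuclei of library 2 and 18.3 CPM in adipocyte nuclei of both libraries. That ratio of 1.08 (95% interval 0.732 to 1.54) includes no difference. Stromal nuclei had 3 in the genotype matrix (Nrcam, Flrt3 and Ryk; all genes 3.08%) and 2 in the age matrix (Rgma and Flrt2; 2.32%). Mural nuclei had 2 in the genotype matrix (Ptk7 and Itga1; 2.26%) and 0 in the age matrix (3.11%), and T lymphocyte nuclei 1 (Itgb1; 2.25%). None was raised in macrophage nuclei of the genotype matrix (3.97%) or in endothelial nuclei of the genotype matrix (2.42%) or the age matrix (3.89%). In adipocyte nuclei 1, Met, the hepatocyte growth factor receptor, was raised in both (4.77% and 4.69%). Of 28 effectors, 27 and 28 reached 20 UMIs, and the same shares of all genes apply to them. Mical3 was raised in adipocyte nuclei of both matrices, at 582 and 599 CPM in the genotype matrix and 605, 488 and 507 CPM in the age matrix. It was the 1 effector raised there. Ablim1 was raised in endothelial and Dpysl3 in stromal nuclei of both, with Rnd1 in endothelial nuclei of the age matrix and Srgap1 in stromal nuclei of the genotype matrix besides. Mural nuclei had 2 in each matrix, Farp1 and Dpysl2 in the genotype matrix and Mical1 and Mical2 in the age matrix. Macrophage nuclei had 3 (Pak1, Vav2 and Arhgap39), T lymphocyte nuclei 2 (Fyn and Nck2) and muscle nuclei 0. Schwann nuclei had 4 (Srgap1, Srgap3, Pak1 and Arhgap39).

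Within adipocyte nuclei the 2 libraries of the genotype matrix differed for several members. Slit3 was at 49.6 CPM in library 1 and 764 CPM in library 2, a ratio of 15.4 (14.9 to 16). Sema3a was at 0.65 CPM in library 1 and 57.04 CPM in library 2, a ratio of 87.7 (65.4 to 120.4). Ephb2 was at 6.22 CPM in library 1 and 51.4 CPM in library 2, a ratio of 8.26 (7.4 to 9.24), and Slit2 at 6.64 CPM in library 1 and 39.7 CPM in library 2, a ratio of 5.97 (5.33 to 6.69). In the other direction Sema6b was at 7.11 CPM in library 1 and 1.46 CPM in library 2, a ratio of 0.205 (0.14 to 0.292). Ephb4 was at 16.1 CPM in library 1 and 4.46 CPM in library 2, a ratio of 0.278 (0.224 to 0.341), and Plxna1 at 34.9 CPM in library 1 and 11.5 CPM in library 2, a ratio of 0.331 (0.29 to 0.376). Of 24 members with 200 or more UMIs in these nuclei, 7 (29.2%) were at least 3 times higher in library 2 (Slit3, Sema3a, Ephb2, Slit2, Sema3c, Plxnc1 and Robo1) and 3 (12.5%) at least 3 times lower (Sema6b, Ephb4 and Plxna1). Over all 11965 genes with as many UMIs the shares were 4.8% and 9.63%. The Slit3 ratio of library 2 to library 1 was 10.1 (5.55 to 20.3) in endothelial nuclei, 5.75 (2.43 to 17.9) in macrophage nuclei, 1.38 (1.31 to 1.46) in stromal nuclei and 1.36 (1.23 to 1.5) in mural nuclei. For Slit2 the ratio was 8.68 (6.66 to 11.5) in stromal nuclei and 21.98 (5.76 to 187) in mural nuclei, with intervals that overlap that in adipocyte nuclei. For Sema3a it was 7.72 (5.37 to 11.4) in stromal nuclei and 5.95 (1.35 to 54.3) in mural nuclei. In endothelial and macrophage nuclei Sema3a was at 0 CPM in library 1 and 31.7 and 20.8 CPM in library 2. The lower limits of those ratios were 1.69 and 1.24. Intervals that include no difference were found for Ephb2, whose ratio was 1.23 (0.91 to 1.67) in stromal nuclei, and for Sema3c, whose ratio was 1.31 (0.973 to 1.77) in stromal nuclei. In mural nuclei Sema3c was at 0 CPM in library 1 and 9.07 CPM in library 2, with a lower limit of the ratio of 1.08. Its lower limits in endothelial and macrophage nuclei, 0.382 and 0.36, include no difference. In adipocyte nuclei Sema3c was at 1.75 CPM in library 1 and 17.6 CPM in library 2, a ratio of 10.03 (8.18 to 12.4). The marker lists of other types also differed between adipocyte nuclei of libraries 1 and 2, with every listed gene detected in both. The 8 skeletal muscle markers were at 5.12 and 95.2 CPM, with Neb and Ttn the most abundant, and the 8 stromal markers at 29.2 and 108 CPM. The 7 macrophage markers were at 24.2 and 71.9 CPM and the 7 T lymphocyte markers at 3.04 and 12.2 CPM, while the mural list differed least of these, at 21.4 and 25.2 CPM. Their part in the gap was not tested. Each library is 1 sample, and which library holds which genotype is not known.

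**Figure D5:**
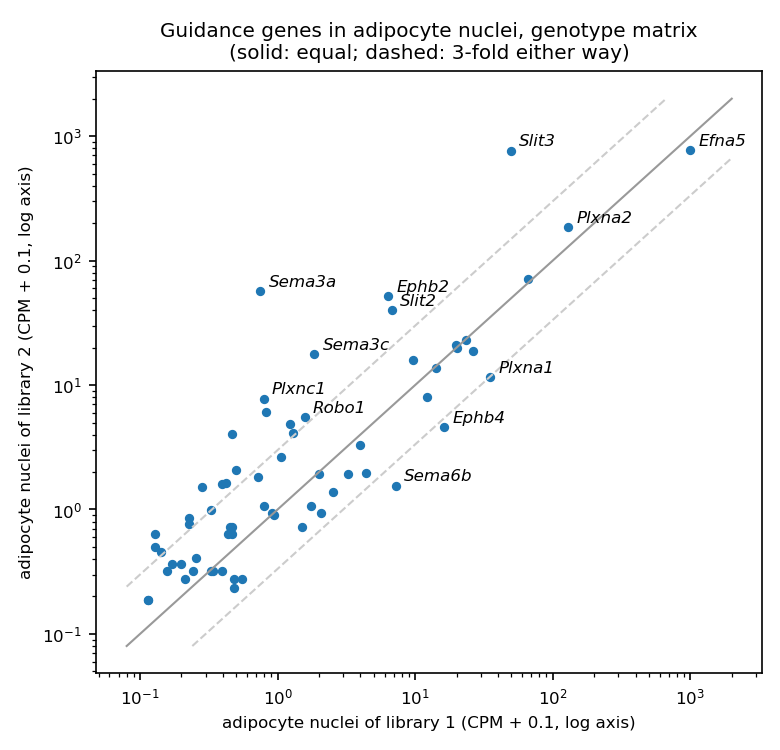
Level of 65 guidance genes in adipocyte nuclei of library 1 (x axis) and library 2 (y axis) of the genotype matrix, both as CPM + 0.1 on log axes, 1 point per gene, with a solid line for equal levels and dashed lines for 3-fold differences. Of the 24 members with 200 or more UMIs, Slit3, Sema3a, Slit2, Ephb2, Sema3c, Plxnc1 and Robo1 lie above the upper dashed line. Sema6b and Ephb4 of these lie below the lower one, with Plxna1 almost on it. Some members with fewer UMIs, such as Unc5c and Unc5a, also lie above the upper line.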

How the data were processed

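Per the labels, nuclei of mouse interscapular brown adipose tissue were sorted and sequenced by 10x 3′ chemistry. The methods and processing notes name Cell Ranger 6.1.2, mm10 and Seurat 4.1.0, and state a filter of 200 to 2000 UMIs per nucleus. Library 1 of the genotype matrix held no nucleus under 2053 UMIs, so the lower limits alone (200 UMIs, 100 genes) were used. The deposited values are UMI counts per gene and barcode, not normalized by the authors. Whether intronic reads were counted was not given in the sources used here.

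Nuclei were put into types by 10 fixed marker lists of 5 to 8 genes. Seed nuclei had 3 or more markers of a list, and at least 2 times as many as of any other list. The highest rate of a list among seeds of other types set its background in each library. A nucleus passed with 2 or more markers and a Poisson upper tail below 0.0001. Nuclei passing several gates, possible doublets, were left out (272 and 967 in the genotype and age matrices), and 3866 and 5013 passed none. Intervals are exact Poisson intervals for CPM and exact conditional binomial intervals for ratios.

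Genes named were mainly up to 4 raised members per type and matrix with the highest fold and 50 or more UMIs, and their partners. Unc5b was described besides, as a member raised in endothelial nuclei of both matrices. The members and lists were chosen with earlier results of these data known. Gates and calls were checked on simulated data. Alternatives were other gates, graph clusters (scanpy 1.11.5), UMI limits, thinning to 500 UMIs, other folds and leaving out each library. Python 3.11.15 and scipy 1.17.1 were used, with gene positions from GENCODE M21 and promoters from RefSeq.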

Additional observations from a re-analysis of the deposited data

Results flagged for a closer look

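Nuclei of types with fewer than 50 nuclei in every library of a matrix entered no comparison. Members were listed from them only with a set minimum of UMIs and at least 3 times the mean CPM of the types compared. Their levels were therefore high by choice, and the share of all genes passing the same rule was not computed. For each type, the values given are those of its members with the highest fold over the mean CPM of the types compared.

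The 44 Schwann nuclei of the genotype matrix had 161.7 CPM of Sema4f (16 UMIs, interval 92.5 to 263) and 111.2 CPM of Plxnb3 (11 UMIs, 55.5 to 199). A count of 3 UMIs would be 30.3 CPM there. The 22 lymphatic endothelial nuclei of the age matrix had 561.9 CPM of Sema3a (23 UMIs, 356 to 843) and 268.8 CPM of Ephb1 (11 UMIs, 134 to 481). The 91 macrophage nuclei of the age matrix had 103.8 CPM of Plxnc1 (17 UMIs, 60.5 to 166) and 73.29 CPM of Sema4a (12 UMIs, 37.9 to 128). The 43 T lymphocyte nuclei of the age matrix had 193.6 CPM of Sema4d (12 UMIs, 100 to 338).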

How the results depend on the processing

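No sample could be tied to a library, so the libraries could not be compared by group, and 1 sample per label limits every value to a description. Endothelial nuclei of the genotype matrix and Schwann nuclei of libraries 2 and 3 of the age matrix were few, which limits members with low counts. The number of members raised in at least 1 type, 37 in each matrix, stayed within 1.5 times that number except in 3 settings. With at most 2000 UMIs per nucleus, which leaves no nucleus of library 1, it was 22 in the genotype matrix, and with nuclei thinned to 500 UMIs it was 23. With a fold of 5 it was 20 in the age matrix. Over the other settings it ranged from 27 to 42 in the genotype matrix and from 26 to 45 in the age matrix. Pairs with different highest types, 23 in the genotype matrix, numbered 5 of 9 countable with at most 2000 UMIs and 12 of 17 without library 2. In the age matrix they numbered 16 of 27 without library 1, against 27 of 40. For 36 combinations of a named gene and type, the log2 ratio to the other types was above 0 in all of 338 alternative values, but 104 of these moved beyond counting error and 4 fell below that of a 3-fold difference, all in the genotype matrix. By graph clusters Ntng1 in mural nuclei fell from 5.32 to 0.02, which is close to no difference, and Ephb2 in stromal nuclei from 3.85 to 0.65. With at most 2000 UMIs Plxnb2 in macrophage nuclei was at 0.85 and Efna5 in adipocyte nuclei at 1.43. The call of Efna5 was also lost by graph clusters, at 1.76, and with a fold of 5. By type, endothelial members of the age matrix, 15, numbered 9 by graph clusters, 8 with at most 2000 UMIs and 5 with a fold of 5, and those of the genotype matrix, 16, numbered 9 after thinning. Stromal members of the genotype matrix, 7, numbered 2 with at most 2000 UMIs, 12 with a fold of 2 and 15 against the other types as one sum, and mural members, 5, numbered 3 after thinning and 11 against that sum. Macrophage members of the genotype matrix, 3, numbered 1 with at most 2000 UMIs and 6 with a fold of 2 or against that sum, muscle members, 3, numbered 5 against that sum, and T lymphocyte members, 3, were 0 after thinning. Adipocyte members, 1, numbered 2 with a fold of 2. In the age matrix mural members, 3, numbered 1 with a fold of 5 and 6 against that sum, and stromal members, 5, numbered 3 with at most 2000 UMIs or a fold of 5 and 9 against that sum. Schwann members, 11, numbered 3 without library 1 of the age matrix. Keeping nuclei that passed several gates was an alternative added after the data were seen. No paired analysis was possible because the libraries carry no replicate numbers and the results come from no test.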

Other observations

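In the same 44 Schwann nuclei of the genotype matrix, Sema3e was at 415 CPM (interval 297 to 562) and Ntng1 at 536 CPM (401 to 701), where the mean of the types compared was 2.26 and 11.7 CPM. Ephb2 was at 233 CPM (147 to 349). These nuclei had been left out of the calls for their number. Members named in this section were picked by the same minimum of UMIs and fold as those flagged above.

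The lymphatic endothelial nuclei of the age matrix also carried Ntn1 at 953 CPM (interval 678 to 1303), Plxna4 at 709 CPM (475 to 1018) and Sema6a at 1881 CPM (1485 to 2351). The mean of the types compared was 79.6, 71.4 and 303 CPM for these genes. In the 91 macrophage nuclei of the age matrix Plxna4 was at 336 CPM (253 to 437).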
